A study of Homo sapiens with 14 samples.

Results

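The genes described here were 10 genes of the liver zone in which beta-catenin is active: GLUL, SLC1A2, RHBG, OAT, AHR, CYP1A2, CYP2E1, CYP3A4, TBX3 and SLCO1B3. They were chosen by symbol, and all 10 were found among the 59250 gene symbols of the deposited count table. RNA captured by its poly(A) tail was sequenced from HepG2, an established human liver cancer line, and NUGC4, an established human gastric cancer line, and 13 libraries in 6 groups were compared. The HepG2 groups were cells with an empty vector (2 libraries) and cells infected by lentivirus with CTNNB1_OE, an EF1α-driven FLAG- and GFP-tagged CTNNB1 without exon 3, which encodes the degradation signal of beta-catenin (2 libraries). The NUGC4 groups were unmodified wild-type cells (4 libraries), single-cell clones labelled ARID1A knockout (2 libraries), CRISPR interference (CRISPRi) cells with sgRNA1, 1 guide against ARID1A (2 libraries), and the matching CRISPRi vector control (1 library). The labels list 2 vector control libraries, 1 of which had no column that matched it by name and was not analysed here, so each sgRNA1 comparison rests on 1 control library. All groups were grown in the same serum-supplemented medium. The labels do not say whether the libraries of a group were separate cultures, or whether the knockout libraries came from separate clones. The p-values therefore measure only the spread between these libraries, which may be technical.

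In the liver lobule, hepatocytes around the central vein receive Wnt ligands from the vein's endothelium, and beta-catenin then drives a gene program that periportal hepatocytes lack. These perivenous cells capture the ammonia that escapes the urea cycle and fix it into glutamine, and they carry much of the liver's cytochrome P450 metabolism of drugs and other foreign compounds. Glutamine synthetase, encoded by GLUL, is the classical marker of the layer next to the vein and of liver tumours with mutant CTNNB1. HepG2 itself is known to carry a CTNNB1 allele with an internal deletion that stabilizes beta-catenin, so its vector control is not a cell without active beta-catenin. The tagged CTNNB1 cannot be told apart from the cell's own gene in these counts.

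Of the 10 genes, 8 have an entry in the RefSeq promoter table (GRCh38.p14), and the 250 bases before the annotated start were searched on both strands for 3 short motifs. These were the TCF/LEF motif bound by the partners of beta-catenin (CTTTGAT or CTTTGAA), the core bound by the AHR dimer (GCGTG) and a TATA box (TATAAA). A TCF/LEF match occurred in 1 of the 8 windows, against 5.94% of the 35116 windows in the table. The AHR core occurred in 2 of 8 (32.2% of all windows) and the TATA box in 3 of 8 (10.7%). The 4 windows shown are those of the zone's classical marker (GLUL), of the gene with the largest change (CYP1A2), of the gene that fell (OAT) and of the gene with the TCF/LEF match (CYP2E1). Capitals mark the matches, and each sequence reads 5′ to 3′ towards the gene.
GLUL, chr1:182391791-182392040 (minus strand): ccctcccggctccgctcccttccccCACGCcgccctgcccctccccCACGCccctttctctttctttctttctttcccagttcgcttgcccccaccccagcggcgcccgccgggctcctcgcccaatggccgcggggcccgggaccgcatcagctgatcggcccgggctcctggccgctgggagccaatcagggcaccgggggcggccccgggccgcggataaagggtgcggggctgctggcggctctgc
CYP1A2, chr15:74748595-74748844 (plus strand): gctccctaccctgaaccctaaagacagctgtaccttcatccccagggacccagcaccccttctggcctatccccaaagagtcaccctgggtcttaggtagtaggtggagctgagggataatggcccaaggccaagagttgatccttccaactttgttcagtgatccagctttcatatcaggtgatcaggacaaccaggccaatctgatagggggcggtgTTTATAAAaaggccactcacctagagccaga
OAT, chr10:124418924-124419173 (minus strand): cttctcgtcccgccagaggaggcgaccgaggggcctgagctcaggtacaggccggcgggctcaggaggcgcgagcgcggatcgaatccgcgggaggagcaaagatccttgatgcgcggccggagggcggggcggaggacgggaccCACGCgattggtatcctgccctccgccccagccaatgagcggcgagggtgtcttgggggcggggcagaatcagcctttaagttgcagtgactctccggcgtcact
CYP2E1, chr10:133527113-133527362 (plus strand): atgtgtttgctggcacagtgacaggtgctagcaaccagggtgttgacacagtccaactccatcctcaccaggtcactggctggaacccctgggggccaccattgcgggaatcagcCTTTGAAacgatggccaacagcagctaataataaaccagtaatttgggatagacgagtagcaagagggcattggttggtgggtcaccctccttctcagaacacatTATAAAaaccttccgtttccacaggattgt
The GLUL window held the AHR core on the opposite strand, starting 225 and 204 bases before the start, and the OAT window held it once, at 105 bases. The CYP1A2 capitals are a TATA box at 29 bases that overlaps a match on the other strand at 31 bases. In CYP2E1 the TCF/LEF letters lay at 135 bases and the TATA box at 30 bases. The windows of RHBG, AHR and SLCO1B3 held none of the 3 motifs, and CYP3A4 held a TATA box at 29 bases. A match in such a window is a run of letters and was not tested for binding.

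Counts per library ran from 13138681 to 23914120 in HepG2 and from 9167761 to 17668394 in NUGC4, and levels are given as CPM, the count per 1000000 counts of the library. CTNNB1 stood at 385 and 379 CPM in the HepG2 vector libraries and at 1538 and 1551 CPM with CTNNB1_OE, a 4.06-fold rise (edgeR, adjusted p = 1.18e-18). Markers of hepatocytes (20 genes) summed to 47400 to 47680 CPM in vector and 64870 to 67400 CPM in CTNNB1_OE, against 223 to 347 CPM in NUGC4, so HepG2 carried its labelled identity. In NUGC4 the gastric marker CLDN18 stood at 125 to 136 CPM in wild type, while TFF2 and GKN1 had no counts there. ARID1A stood at 117 to 137 CPM in wild type and 140 CPM in the CRISPRi vector, against 57.6 and 53.5 CPM with sgRNA1 and 34.3 CPM in knockout replicate 1. The library labelled knockout replicate 2 held 141 CPM, which goes against its label, so every NUGC4 result is given with and without it. The NUGC4 libraries were of 2 kinds by their share of ribosomal RNA counts, which was 8.04 to 11.7% for wild type, 6.30% for knockout replicate 1 and 0.162 to 0.177% for the other 4. The HepG2 libraries held 0.191 to 0.252%.

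The 10 genes divided by cell line. Per kilobase of exon (all annotated exons of a gene in GENCODE v29 merged), GLUL was the most abundant of the 10 in HepG2 vector cells at 36.3 CPM per kilobase. RHBG followed at 18.4, OAT at 17.02, TBX3 at 8.91, AHR at 5.602 and SLC1A2 at 3.18 CPM per kilobase, while CYP3A4, CYP1A2, SLCO1B3 and CYP2E1 were each at or below 0.066. The libraries of neighbouring genes in this order overlapped only among these last 4. In wild-type NUGC4 the order began with AHR at 35.4 CPM per kilobase, OAT at 25.3, SLCO1B3 at 12.9 and GLUL at 6.99, with no overlap between neighbours, and the other 6 were at or below 0.327. With CTNNB1_OE the order of the first 6 genes in HepG2 was kept, from GLUL at 41.2 to SLC1A2 at 5.34 CPM per kilobase, and CYP1A2 came next at 0.555.

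In HepG2, cells with CTNNB1_OE had more SLC1A2 and CYP1A2 RNA and less OAT RNA than vector cells, while GLUL, RHBG and AHR rose 1.14- to 1.21-fold. The test was the quasi-likelihood test of edgeR with Benjamini-Hochberg adjustment over all 15703 genes tested, a gene being called at an adjusted p under 0.05. It called 5 of the 8 genes tested higher and 1 lower. Over all genes 24.2% were called, 12.8% higher and 11.4% lower, which are also the shares to set beside each HepG2 list below. Neither CYP3A4 nor SLCO1B3 passed the filter on low counts, and CYP1A2 and CYP2E1 passed it through the CTNNB1_OE libraries alone, so these counts describe the genes and carry no test. The median log2 fold change over all genes tested was 0.00373. Where a 2-fold change was asked for as well, CYP1A2 alone was called, against 2.73% of all genes. In a fit of all 13 libraries together, whose spread is shared with NUGC4, none of the 8 was called and 117 genes were. Without vector replicate 2 3 of the 8 were called in place of 6.

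**Figure D1:**
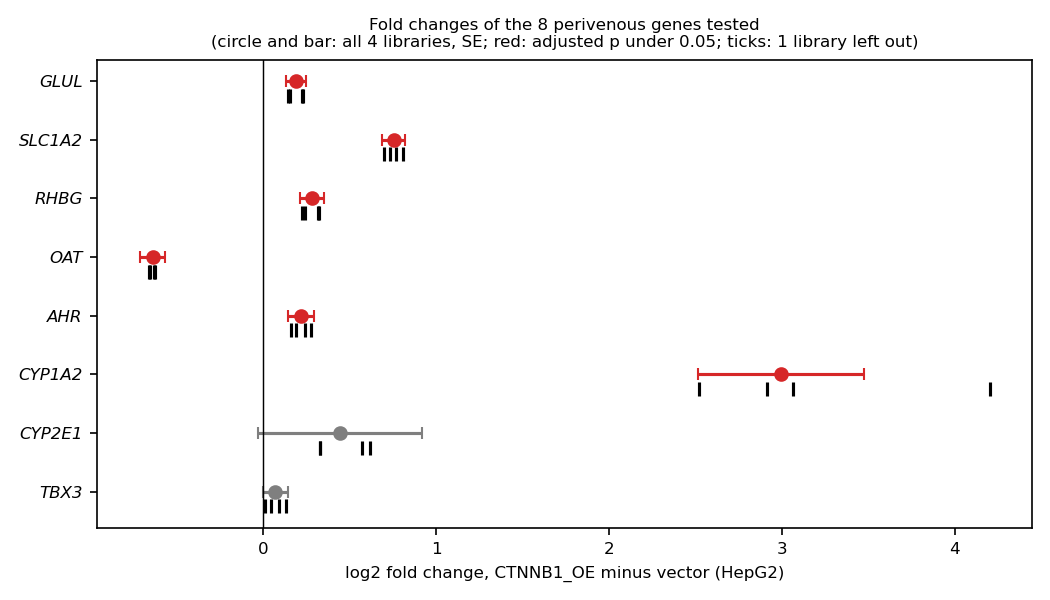
Log2 fold change (horizontal axis, CTNNB1_OE minus vector in HepG2) of the 8 genes tested, with circles and bars for the estimate from all 4 libraries and its standard error, red where the adjusted p was under 0.05, and black ticks for the estimates with 1 library left out. OAT lay below 0 at −0.64 and the other 7 above it, from TBX3 at 0.07 to CYP1A2 at 2.99.

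Of the 4 genes among the 10 that handle glutamate, ammonia and glutamine, SLC1A2 rose most. SLC1A2 (chromosome 11, 35251205 to 35420507, GRCh38.p14) encodes the glutamate transporter GLT-1, which brings glutamate, the substrate of glutamine synthetase, into the cell. It stood at 73.1 and 72.2 CPM in vector and at 127 and 117 CPM in CTNNB1_OE. The groups did not overlap, and SLC1A2 rose 1.69-fold (log2 fold change 0.75 ± 0.07, SE; edgeR, adjusted p = 1.84e-09). With each library left out in turn its log2 fold change stayed between 0.70 and 0.81. In NUGC4 it was near the detection limit, with 2 counts over the wild-type libraries, 1 in the vector library and 0 in the other 4.

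GLUL (chromosome 1, 182378098 to 182391790) encodes glutamine synthetase, which joins ammonia to glutamate. It stood at 336 and 319 CPM in vector and at 364 and 380 CPM in CTNNB1_OE. The groups did not overlap, and the rise was 1.14-fold (log2 fold change 0.19 ± 0.06, SE; edgeR, adjusted p = 0.0189). It did not pass without vector replicate 1 (edgeR, adjusted p = 0.0711), vector replicate 2 (adjusted p = 0.308) or CTNNB1_OE replicate 2 (adjusted p = 0.119), within alternatives that ran from 0.0128 to 0.908. In NUGC4 GLUL stood at 60.8 to 65.6 CPM in wild type, 54.5 in knockout replicate 1, 63.1 and 72.3 with sgRNA1, 83.3 in the vector and 85.2 in the library labelled knockout replicate 2. Every HepG2 library was thus above every NUGC4 library. As labelled, the 4 NUGC4 groups overlapped with their neighbours in the order of means. Without the library labelled knockout replicate 2, the vector library lay above both sgRNA1 libraries, and knockout replicate 1 lay below all wild-type libraries. The sgRNA1 and wild-type libraries overlapped either way.

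RHBG (chromosome 1, 156369211 to 156385219) encodes an ammonia transporter of the Rhesus glycoprotein family, which the perivenous hepatocyte carries on its surface. It stood at 63.9 and 60.3 CPM in vector and at 73.2 and 76.6 CPM in CTNNB1_OE, again without overlap. The rise was 1.21-fold (log2 fold change 0.28 ± 0.07, SE; edgeR, adjusted p = 0.00358), and it did not pass without vector replicate 2 (log2 fold change 0.22; edgeR, adjusted p = 0.128; alternatives from 0.00143 to 0.890). In NUGC4 no library held more than 8 counts of RHBG.

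OAT (chromosome 10, 124397303 to 124418923) encodes ornithine aminotransferase, the mitochondrial enzyme that turns ornithine into a precursor of glutamate, and it was the gene that fell. It stood at 57.9 and 57.4 CPM in vector and at 37.3 and 36.4 CPM in CTNNB1_OE. Its replicates lay within 1 CPM of each other in both groups, and the fall was 1.56-fold (log2 fold change −0.64 ± 0.07, SE; edgeR, adjusted p = 2.37e-07). OAT moved opposite to GLUL, SLC1A2 and RHBG in the same libraries. Leaving out each library in turn gave log2 fold changes from −0.66 to −0.63.

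The wider list of ammonia and glutamine genes, which holds these 4, also changed in both directions. Of 27 listed genes 23 were tested, 8 of which were higher and 7 lower, with a median log2 fold change of 0.11. The count higher was 5 without vector replicate 2 and 0 with all libraries in 1 fit. Besides the genes above, the 2 changes with the smallest adjusted p were falls. SLC1A5, a neutral amino acid transporter that carries glutamine, went from 268 ± 1.01 to 122 ± 6.65 CPM (SD, n = 2 libraries each; log2 fold change −1.13 ± 0.06, SE). ASS1, the urea cycle enzyme that makes argininosuccinate, went from 73.5 ± 0.342 to 33.2 ± 3.20 CPM (SD, n = 2 each; −1.14 ± 0.08, SE). NAGS, which makes the activator of the urea cycle's first enzyme, fell by 1.05 ± 0.13 on the log2 scale. All 3 had adjusted p-values of at most 1.1e-06 in edgeR.

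The foreign-compound genes began with AHR (chromosome 7, 17298652 to 17346147), the ligand-activated transcription factor that induces the CYP1 family. It stood at 43.2 and 47.4 CPM in vector and at 53.6 and 51.5 CPM in CTNNB1_OE. The groups did not overlap and the rise was 1.16-fold (log2 fold change 0.22 ± 0.07, SE; edgeR, adjusted p = 0.0351). This was the weakest call of the 6. It did not pass in DESeq2 (adjusted p = 0.135) or in edgeR without vector replicate 1 (adjusted p = 0.351), vector replicate 2 (0.0684) or CTNNB1_OE replicate 1 (0.123), within alternatives that ran from 0.0357 to 0.727. Every NUGC4 library, at 266 to 344 CPM, stood above every HepG2 library.

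CYP1A2 (chromosome 15, 74748845 to 74756607) encodes the caffeine-metabolizing P450 of the perivenous liver and is a target of AHR. It had 1 and 5 counts in vector (0.0761 and 0.262 CPM) and 29 and 38 counts in CTNNB1_OE (1.44 and 1.59 CPM). The groups did not overlap, and both CTNNB1_OE libraries lay above all others of the series. The ratio of summed counts was 8.17 (95% exact interval 3.56 to 23.0, counting error only). In log2 terms it rose by 2.99 ± 0.48 (SE; edgeR, adjusted p = 3.36e-05; alternatives from 2.86e-09 to 0.303). CYP1A2 passed the filter on low counts through the CTNNB1_OE libraries alone, so this adjusted p describes the gene and is no independent support. DESeq2's test gave it no adjusted p. The size of the rise rested on few vector counts, since it was 2.52 without vector replicate 1 and 4.201 without vector replicate 2. At 1.51 ± 0.106 CPM (SD, n = 2) CYP1A2 was a low transcript also in the CTNNB1_OE libraries.

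Of the 14 listed genes of the AHR pathway 11 were tested, with 5 higher, none lower and a median log2 fold change of 0.22. Over all genes 12.8% were higher and 11.4% lower. Of the 5, 2 were AHR and CYP1A2 themselves. CYP1A2, which also enters the median, passed the filter through the CTNNB1_OE libraries alone. The others were HSP90AA1, a chaperone of the receptor (0.57 ± 0.07, SE; edgeR, adjusted p = 3.76e-07), ARNT, its dimer partner (0.24 ± 0.08; adjusted p = 0.0274, alternatives from 0.0279 to 0.737), and UGT1A6, a conjugating enzyme (0.84 ± 0.19; adjusted p = 0.00179). UGT1A6 shares exons with the other UGT1A genes, so its counts are uncertain. The count was 3 without either vector library, 2 in DESeq2 and 0 with all libraries in 1 fit.

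CYP2E1 (chromosome 10, 133527363 to 133539123), the ethanol-inducible P450 and another classical perivenous gene, was barely detected in HepG2. It had 5 and 9 counts in vector and 13 in each CTNNB1_OE library, or 0.381 and 0.472 against 0.645 and 0.544 CPM. The CPM did not overlap, but the difference did not pass (log2 fold change 0.45 ± 0.47, SE; edgeR, adjusted p = 0.545), and the ratio of summed counts was 1.36 (95% exact interval 0.684 to 2.81). In GENCODE v29 it overlaps SYCE1 on the opposite strand and SCART1 on its own, and the strand setting of the counting is not given in the sources used here. CYP3A4 (chromosome 7, 99756967 to 99784184), the main drug-metabolizing P450 of adult liver, had 2 and 5 counts in vector and 1 in each CTNNB1_OE library, too few to test. Its ratio was 0.209 (95% exact interval 0.0212 to 1.10). At this depth a change of either P450 gene inside its interval, which covers counting error only, could not be told from no change. CYP3A4, SLC1A2 and AHR overlap annotated genes on the opposite strand too, and AHR also the protein-coding gene AC019117.2 on its own strand, so its counts are uncertain.

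TBX3 (chromosome 12, 114670255 to 114684175), a T-box transcription factor known as a beta-catenin target in liver, stood at 50.5 and 55.5 CPM in vector and at 56.5 and 54.6 CPM in CTNNB1_OE. The libraries of the groups overlapped, and the log2 fold change was 0.07 ± 0.07 (SE; edgeR, adjusted p = 0.540). Of the 7 T-box genes tested MGA alone was called, at 0.49 ± 0.08. SLCO1B3 (chromosome 12, 20810705 to 20916911) encodes OATP1B3, an uptake transporter that adult liver keeps to the hepatocytes around the vein. It had 1 and 5 counts in vector and 9 and 2 with CTNNB1_OE, a ratio of 1.34 (95% exact interval 0.454 to 4.41), and was not tested. Of the 3 transporters of its family that were tested SLCO4C1 rose, by 1.16 ± 0.15.

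Other genes of the same zone changed in both directions. Of 28 further perivenous genes 20 were tested, 5 of which were higher and 5 lower, with a median log2 fold change of 0.01. Over all genes 12.8% were higher and 11.4% lower. NR1I3, 1 of the 5 higher, averaged 0.245 CPM in vector and 0.741 CPM with CTNNB1_OE. Below the filter's 0.51 CPM in vector, NR1I3 passed it through the CTNNB1_OE libraries alone. The count higher was 3 without vector replicate 1 and in DESeq2. With all libraries in 1 fit 1 was higher and 0 were lower. CYP7A1, the rate-limiting enzyme of bile acid synthesis, rose from 1.12 ± 0.0289 to 5.59 ± 1.16 CPM (SD, n = 2 each; log2 fold change 2.31 ± 0.24, SE). UGT1A1, which conjugates bilirubin, rose by 1.27 ± 0.14, with the same doubt over shared exons as UGT1A6. SLC13A3, a dicarboxylate transporter, fell by 0.78 ± 0.07 and ALDH1A1, a retinal dehydrogenase, by 0.64 ± 0.06. Each of these 4 had an adjusted p of at most 1.11e-07 in edgeR. Of 24 periportal genes 18 were tested, 7 of which were higher and 4 lower, with a median of 0.04. In the fit of all libraries 0 of them were higher and 1 was lower. AGXT, an aminotransferase of glyoxylate metabolism, rose by 0.77 ± 0.09, and ASS1 and NAGS, given above, fell.

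None of the feedback genes and common targets of beta-catenin was called higher. Of 16 genes 14 were tested, none of which was higher and 8 lower, with a median log2 fold change of −0.20. BMP4, a secreted signal, fell by 0.58 ± 0.06, TNFRSF19, a receptor, by 0.43 ± 0.07, and NOTUM, an enzyme that inactivates Wnt ligands, by 0.41 ± 0.06. LGR5, the R-spondin receptor that also marks perivenous hepatocytes and stands in both lists, fell by 0.43 ± 0.08 (edgeR, adjusted p at most 0.000136 for these 4). The count lower was 5 without vector replicate 2 and 0 with all libraries in 1 fit. It was 1 where a log2 fold change of at least 1 was also asked.

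Markers of hepatocyte identity, which are not specific to a zone, were mostly higher with CTNNB1_OE as well. All 20 were tested, 12 were higher and 2 lower, and their median log2 fold change was 0.30. The count higher was 3 with all libraries in 1 fit, and 3 where a log2 fold change of at least 1 was also asked. The count lower was 1 without vector replicate 1, without CTNNB1_OE replicate 2 and in DESeq2, and 0 with all libraries in 1 fit. ALB went from 11700 ± 34.0 to 21380 ± 1320 CPM (SD, n = 2 each), a 1.84-fold rise, and the fibrinogen genes FGB, FGA and FGG rose 3.03-, 2.20- and 2.16-fold. Of 6 markers of bile duct cells 4 were tested and 3 fell, SPP1 (−1.66 ± 0.08), KRT19 (−1.33 ± 0.08) and ANXA4 (−0.75 ± 0.06), and the sum of the 6 went from 673 to 697 CPM in vector to 430 to 433 CPM. CFTR had no counts in HepG2, and KRT7 had 2 counts in vector and none with CTNNB1_OE. Gastric markers summed to at most 0.315 CPM in HepG2, endothelial markers to at most 3.04 CPM with 3 of 6 at 0, and stellate cell and fibroblast markers to at most 2.09 CPM with 5 of 6 at 0. Immune markers, mostly CD68, summed to 65.1 to 70.6 CPM in vector and 67.3 to 74.4 CPM in CTNNB1_OE, with 4 of 6 at 0. CD14 alone among them was called (0.79 ± 0.21). The part of these differences in the perivenous genes was not tested. In bulk RNA a change in the number of cells of a type and a change in RNA per cell cannot be told apart.

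In NUGC4, SLCO1B3 was the one gene of the 10 called with the labels as given. Its libraries stood at 50.8, 44.8, 37.7 and 48.8 CPM in wild type, 25.6 in the CRISPRi vector, 12.6 and 13.2 with sgRNA1 and 5.42 in knockout replicate 1. The library labelled knockout replicate 2 held 20.2 CPM. All 4 wild-type libraries were above all others, and the vector library was above both sgRNA1 libraries. In human tumours outside the liver SLCO1B3 is known to be transcribed from a start of its own as a shorter form, which gene-level counts do not separate. In GENCODE v29 the protein-coding gene AC011604.2 overlaps SLCO1B3 on the same strand, and how the counting treated it is not known here.

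**Figure D2:**
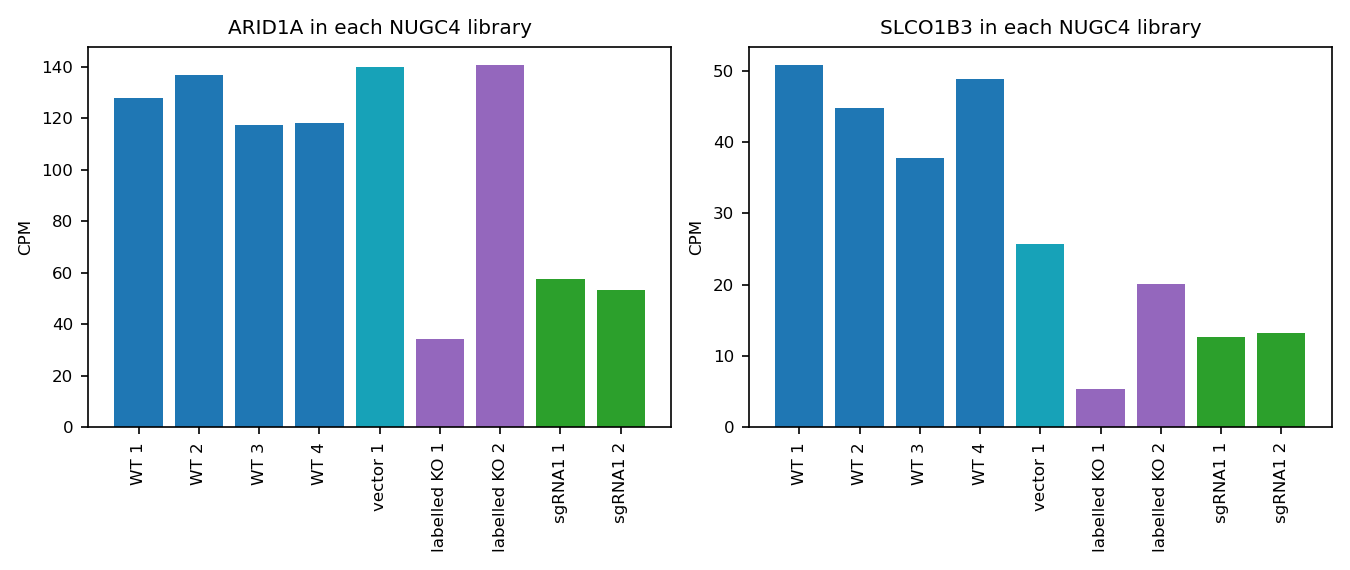
CPM (vertical axis, from 0) of ARID1A and SLCO1B3 in each of the 9 NUGC4 libraries, 1 bar a library. ARID1A was lowest in knockout replicate 1 (34.3 CPM) and the sgRNA1 libraries (57.6 and 53.5 CPM), where SLCO1B3 was also lowest (5.42, 12.6 and 13.2 CPM), while the library labelled knockout replicate 2 held 141 CPM of ARID1A and 20.2 CPM of SLCO1B3.

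As labelled, SLCO1B3 fell in the knockout by 1.71 ± 0.42 on the log2 scale (SE; edgeR, adjusted p = 0.0226). Without the library labelled knockout replicate 2, it fell 7.69-fold (log2 fold change −2.94 ± 0.21, SE; edgeR, adjusted p = 5.1e-09), where the lone knockout library was taken to have the spread of the other groups. Without knockout replicate 1 instead, the library labelled replicate 2 gave −1.09 (adjusted p = 2.3e-05). As labelled the call was lost without wild-type replicate 1, 2 or 4 (edgeR, adjusted p of 0.0614, 0.0562 and 0.0554; alternatives from 5.1e-09 to 0.157). Against the CRISPRi vector, sgRNA1 gave −0.89 ± 0.54 with all libraries in the fit (edgeR, adjusted p = 0.790) and −0.89 ± 0.18 without the library labelled knockout replicate 2 (edgeR, adjusted p = 0.00278; alternatives from 0.00224 to 1). The vector library lay below wild type with no lower ARID1A, and it was of the kind with little ribosomal RNA. Knockout replicate 1 and wild type were of 1 kind in ribosomal RNA, and sgRNA1 and its vector of the other. The sum of the gastric markers, nearly all CLDN18, differed between the groups as well. It was 133 to 142 CPM in wild type, 208 in the vector and 216 in the library labelled knockout replicate 2. In knockout replicate 1 it was 1202 CPM, and with sgRNA1 1229 and 1204 CPM. CDX2 of that list went the other way, at 4.12 to 6.76 CPM in wild type and 0.753 and 4.53 CPM in the libraries labelled knockout. It stood at 5.13 CPM in the vector and 1.47 and 2.43 CPM with sgRNA1. TFF2 and GKN1 had no counts in NUGC4, and TFF1 and MUC5AC stayed at or below 2.95 CPM. The sum of the immune markers was nearly all CD68. It was 32.2 to 37.4 CPM in wild type, 56.8 in knockout replicate 1 and 108 in the vector. In the library labelled knockout replicate 2 it was 115 CPM, and with sgRNA1 149 and 167 CPM. Markers of bile duct cells summed to 1961 to 2259 CPM in wild type, 3641 in knockout replicate 1 and 3463 to 3703 CPM in the other 4 libraries. The part of these markers in the SLCO1B3 differences was not tested.

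In NUGC4 7 of the 10 genes were tested, since CYP1A2, SLC1A2 and RHBG did not pass the filter on low counts. As labelled, the knockout fit called SLCO1B3 alone (23.2% of 19124 genes were called, 13.5% as higher and 9.78% as lower). Without the library labelled knockout replicate 2 it called 5 of the 7, with 2 higher and 3 lower, against 38.2% of 18913 genes, 19.5% as higher and 18.7% as lower. Of the 5, AHR was higher at 321 CPM against 286 ± 16.5 CPM in wild type (SD, n = 4; log2 fold change 0.29 ± 0.11, SE; edgeR, adjusted p = 0.0438). CYP3A4 was higher at 2.79 CPM against 0.729 to 1.26 CPM (1.53 ± 0.44; adjusted p = 0.0109). OAT was lower at 59.9 CPM against 75.5 to 96.3 CPM (−0.39 ± 0.14; adjusted p = 0.0375), and it stood at 99.4 to 107 CPM in every library of the other kind. TBX3 was lower, with no counts in knockout replicate 1 and 24 over the 4 wild-type libraries. The pooled wild-type level (0.562 CPM) was 2.49-fold above a floor of 3 counts in knockout replicate 1 (0.226 CPM). Wild-type replicate 2, with 2 counts (0.181 CPM), lay below that floor. None of these 4 was called with the labels as given, and over their alternatives the adjusted p reached 0.865 for CYP3A4, 0.972 for OAT, 0.996 for TBX3 and 0.997 for AHR. With the labelled replicate 2 as the only knockout library, the log2 fold changes were 0.52 for GLUL, 1.30 for CYP2E1, 0.39 for OAT and 0.99 for TBX3. They were 0.13 for CYP3A4, −0.00060 for AHR and −1.09 for SLCO1B3. That library also differed from wild type in its share of ribosomal RNA (0.162% against 8.04 to 11.7%). OAT and TBX3, and GLUL at −0.08 without that library, thus changed sign with the library that stood for the knockout. AHR, at 0.29 without that library, was −0.00060 with it alone.

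For sgRNA1 against vector, edgeR called none of the 7 and none of the 19124 genes with all libraries in the fit (0% called). At an unadjusted p under 0.05 it gave 0 of the 7 and 1420 of all genes, while DESeq2 called 165 of all genes and limma-voom 0. Without the library labelled knockout replicate 2 SLCO1B3 alone was called of the 7, as lower, against 8.73% of 18913 genes, 4.62% as higher and 4.11% as lower. CYP2E1 stood at 5.40 and 4.25 CPM with sgRNA1, above the 2.44 CPM of the vector and the 0.729 to 1.54 CPM of wild type, but did not pass (log2 fold change 1.07 ± 0.38, SE; edgeR, adjusted p = 0.0970 without that library; alternatives from 0.0875 to 1). GLUL, OAT, AHR, TBX3 and CYP3A4 did not pass in either fit. In OAT, GLUL and TBX3 the library labelled knockout replicate 2 lay near the vector, at 106 against 107, 85.2 against 83.3 and 1.07 against 1.13 CPM, while in CYP3A4 it held 1.07 against 0.500 CPM.

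Among 21458 other genes, those whose level most resembled that of GLUL over the 13 libraries were PRXL2A, MXI1 and AGBL5. The likeness was the root mean square difference of log2 CPM after each gene was centred on its mean, which was 0.113, 0.122 and 0.128 for the 3 (Pearson's r of 0.997, 0.996 and 0.997). The libraries come from 2 cell lines, so the likeness mostly carries the step between HepG2 and NUGC4. PRXL2A went from 24.5 CPM in wild-type NUGC4 to 125 CPM in HepG2 vector and 140 CPM in CTNNB1_OE.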

How the data were processed

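RNA-seq was measured in 13 libraries of HepG2 and NUGC4. The values are raw counts per gene symbol as the authors deposited them in 1 table of 59250 symbols. The submitters' processing notes name STAR 2.7.10a and hg38. How reads were counted, with which annotation and strand setting, is not given in the sources used here. Of 14 columns 1 matched no sample by name and was not used. The genes, lists and tests were chosen with earlier results of these data known. Tests used edgeR 4.0.16 in R 4.3.3 (TMM, filterByExpr, quasi-likelihood, Benjamini-Hochberg over all genes), with 1 fit for the 4 HepG2 libraries (2 residual degrees of freedom) and 1 for the 9 NUGC4 libraries (5). Named genes were the 10, CTNNB1, ARID1A, up to 4 of each list with the smallest adjusted p in HepG2, and the 3 most like GLUL; 1 gene under this rule is not reported here. CFTR, KRT7, CLDN18, CDX2, CD68, TFF1, TFF2, MUC5AC and GKN1, from the marker lists, and NR1I3 were chosen after their values were seen. Alternatives were DESeq2 1.42.0 (test and size factors), limma-voom (limma 3.58.1), no filter, a replicate block, all libraries in 1 fit and each library left out. After seeing the data, total-count scaling and a log2 fold change of at least 1 were added. The scripts were tested on simulated data. Intervals and floors (3 counts) cover counting error only. Positions and promoters come from RefSeq (GRCh38.p14), where 57841 symbols matched, and exon lengths from GENCODE v29.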

Additional observations from a re-analysis of the deposited data

Results flagged for a closer look

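In the 4 wild-type NUGC4 libraries, the one group large enough for a check for a library that stands apart, CYP1A2 and SLC1A2 were each set apart by 1 library. CYP1A2 had 2 counts in wild-type replicate 4 and 0 in the other 3, and SLC1A2 had 2 counts in wild-type replicate 3 and 0 in the other 3, so the gap to the nearest other library was the whole range (a ratio of 1 in both, above the critical value of Dixon's test). With 3 libraries at 0 this ratio is 1 whatever the other library holds, so the check cannot decide here. Its rate of about 5% by chance does not apply to such counts, and both values lie below the floor of 3 counts.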

How the results depend on the processing

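In HepG2, 70 of 86 values of the 8 genes under the alternatives kept direction and side of the threshold and 16 kept direction but no longer passed. CYP1A2 and CYP2E1 had no adjusted p in DESeq2's test, so the 86 hold no value of theirs for it. Of the 10 genes, 0 were called with all libraries in 1 fit and 1 with a log2 fold change of at least 1 also asked (3 to 5 with each library left out, 3 without vector replicate 2). All genes called numbered 3804, against 2192 with DESeq2's test, 117 with all libraries in 1 fit and 2403 without vector replicate 1. ARID1A, −0.0089 in HepG2, was 0.022 with all libraries in 1 fit and −0.045 to 0.025 with each left out. In the knockout comparison 0 were called with the replicate block and 2 with all libraries in 1 fit (0 to 5 with each left out). The log2 changes that changed sign there were OAT (−0.049 by total counts), TBX3 (−0.024 in DESeq2, −1.08 in limma-voom, −0.028 by total counts), and with each library left out GLUL (−0.084 to 0.52), OAT (−0.39 to 0.39), TBX3 (−5.86 to 0.99), AHR (−0.00060 to 0.29) and ARID1A (−1.74 to 0.25). For sgRNA1 0 to 1 were called with each left out, and OAT (−0.048 with the replicate block, −0.074 by total counts, −0.0075 to 0.037) and TBX3 (−1.51 to 0.25) changed sign. The cause was not tested, and without the vector library that comparison has no value. The labels do not say whether same-numbered libraries share more than a number. Their deviations correlated at −0.08 over 15703 genes in HepG2 and at −0.02 to 0.06 over 19124 in NUGC4, which cannot settle it. The NUGC4 values draw in part on the library labelled knockout replicate 2. With the replicate block 4 of the 10 (2916 genes) were called in HepG2, where GLUL (adjusted p = 0.130) and AHR (adjusted p = 0.110) did not pass in edgeR, and 0 genes in the knockout. Depth limits CYP1A2, CYP2E1, CYP3A4 and SLCO1B3 in HepG2 most, with 67 counts or fewer a group.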
